A study of Oryza sativa with 6 samples.

Results

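The light-harvesting chlorophyll-binding proteins of rice were followed through 6 root libraries by 10 loci, of the 37110 loci with a gene ID in the deposited tables. The loci were taken by their rice gene IDs: 7 Lhcb loci (3 copies of Lhcb1, then Lhcb3, Lhcb4, Lhcb5 and Lhcb6) and 3 Lhca loci (Lhca1, Lhca3 and Lhca4). The loci were chosen by their read levels in these same libraries, where they stood out under salt in nodal and L-type roots, so the levels and ratios below are a description and no locus is tested. The files pair IDs with no gene names, so the names come from general knowledge of these IDs and could not be checked against an annotation.

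All libraries were from roots of IR29, a rice cultivar that the series calls salinity sensitive. Salt plants received 50 mM NaCl for 7 days and control plants are labelled only as control. Temperatures were 30 °C in the 12 h day and 25 °C in the night. The 6 groups were nodal roots under salt, nodal roots under control, L-type lateral roots under salt, L-type lateral roots under control, S-type lateral roots under salt and S-type lateral roots under control. Nodal roots are the shoot-borne axes, and S-type and L-type laterals are the short and the long branches that grow on roots. With a single library per group, the data hold no replicate spread. The sources used here do not say how many plants went into a library or whether roots were exposed to light.

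Light-harvesting proteins sit in the thylakoid membranes of chloroplasts, where they bind chlorophyll and carotenoids and pass the energy of absorbed light to the reaction centres. Lhcb proteins serve photosystem II: Lhcb1 and Lhcb3 belong to its trimeric main antenna, and Lhcb4 (CP29), Lhcb5 (CP26) and Lhcb6 (CP24) are the monomeric minor antennae that link it to the core. Lhca proteins form the belt around photosystem I. The genes lie in the nucleus, are transcribed strongly in light-grown green tissue and are usually scarce in roots.

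The libraries held 3817077 to 4234252 reads on loci with a gene ID. Values are scaled reads, that is reads brought to a mean library of 3993894 reads with TMM factors, which correct for differences in library composition. A list of 5 loci known from roots covered silicon and iron transport, the Casparian strip and a root proline-rich protein, by general knowledge. It had summed values between 7033.3 and 31574.7 scaled reads across the libraries, with at most 1 locus at 0 reads in any of them. The most abundant locus of the list supplied from 14.8% of the sum (control nodal) to 60.6% (salt L-type). Its loci went both ways. For S-type over nodal roots under salt, 2 were higher and 2 lower by the size rule given below. Of all loci, 17.5% were higher and 16.1% lower in that comparison. Reads of a bulk library cannot tell more cells of a type from more RNA per cell. Ratios are given with a 95% exact conditional binomial (Clopper-Pearson) interval, which reflects counting error alone, and PCR copies are not independent molecules.

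The salt nodal library held the most antenna reads and the salt L-type library came next, while both S-type libraries and all control libraries held few. The summed values were 2716.7 scaled reads in the salt nodal library against 89.1 in the control nodal library, 996.3 in the salt L-type against 93.5 in the control L-type library, and 31.0 in the salt S-type against 32.2 in the control S-type library. All 10 loci had their highest value in the salt nodal library and their next highest in the salt L-type library. The lowest of the 10 loci in salt nodal roots, at 63.7 scaled reads, stood above the highest in any control library, at 25.6. In the salt S-type library the highest locus had 7.8.

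Even where they were highest, the antenna loci made up a small part of the library. They took 0.0758% of the reads in the salt nodal library against 0.00239% in the control nodal library, and 0.0272% in the salt L-type against 0.00274% in the control L-type library. In the S-type libraries they took 0.000619% under salt and 0.000665% under control. Among the 18936 loci reaching 10 reads in 2 libraries or more, 81.3% had a lower value than the median antenna locus in the salt nodal library, against 8.19% in the control nodal library. For the L-type libraries the shares were 58.2% under salt and 14.0% under control. All 10 antenna loci reached 10 reads in the salt nodal and salt L-type libraries, where they are high. Some would also have passed that filter through the control nodal and control L-type libraries, where 5 and 4 of the 10 were under 10 reads. The others passed only with a salt library.

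**Figure D1:**
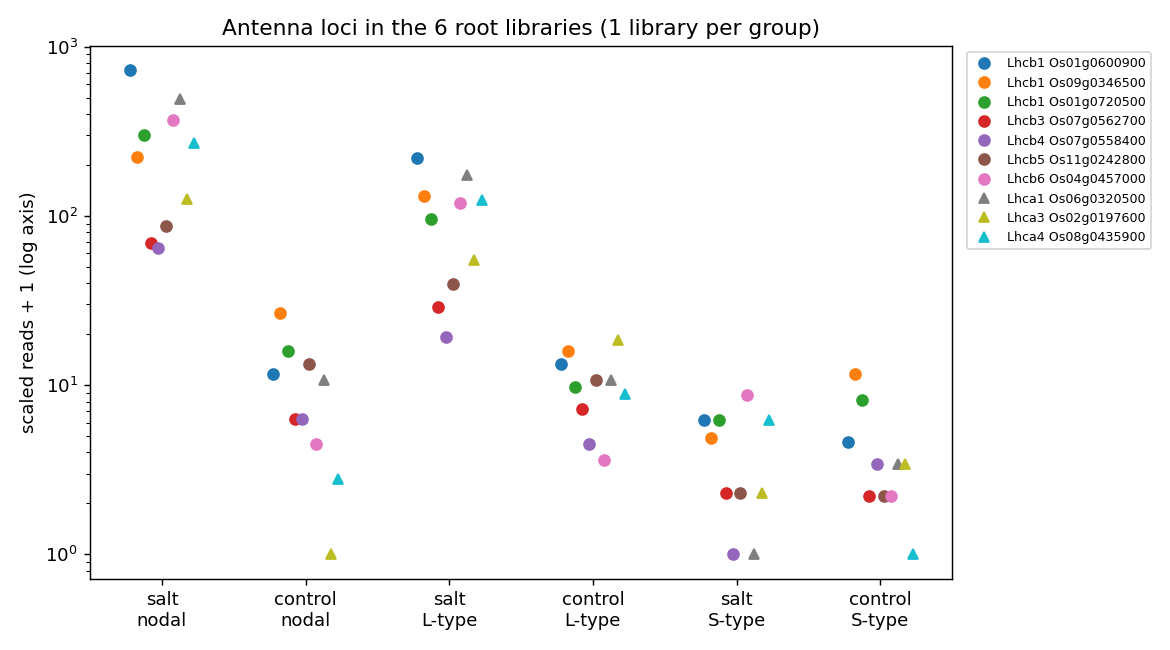
Scaled reads + 1 of the 10 antenna loci (log axis) in the 6 root libraries, 1 library per group, with Lhcb loci as circles and Lhca loci as triangles. In the salt nodal library all points lie above those of every control library. In both S-type libraries no locus exceeds 10.7 scaled reads, and the points lie within the range of the control nodal points. A value of 1 stands for 0 reads.

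Of the main photosystem II antenna, the Lhcb1 locus Os01g0600900 (chromosome 1, 23607362 to 23608541) was the most abundant antenna locus in salt nodal roots. It had 725.4 scaled reads in salt nodal against 10.6 in control nodal, 217.7 in salt L-type against 12.3 in control L-type, and 5.2 in salt S-type against 3.6 in control S-type roots. The salt over control ratio was 68.5 in nodal roots (95% interval 39.0 to 133) and 17.6 in L-type roots (10.3 to 32.8). In S-type roots, with 4 reads under salt and 3 under control, the ratio was 1.45 (0.245 to 9.87).

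The other copies of Lhcb1 showed smaller nodal ratios. Os09g0346500 (chromosome 9, 10845778 to 10847012) had 221.7 scaled reads in salt nodal against 25.6 in control nodal, 130.4 in salt L-type against 15.0 in control L-type, and 3.9 in salt S-type against 10.7 in control S-type roots. It was the highest antenna locus in control nodal roots and in control S-type roots, and its ratio was 8.66 (5.89 to 13.2) in nodal and 8.70 (5.24 to 15.4) in L-type roots. Os01g0720500 (chromosome 1, 30030997 to 30032054) had 301.2 scaled reads in salt nodal against 15.0 in control nodal, 94.9 in salt L-type against 8.8 in control L-type, and 5.2 in salt S-type against 7.2 in control S-type roots. Its ratio was 20.1 (12.4 to 34.9) in nodal and 10.8 (5.61 to 23.1) in L-type roots. The nodal intervals of Os01g0600900 and Os09g0346500 did not overlap. The sources used here do not say what became of reads that match several Lhcb1 copies, so values of single copies are uncertain. The sum of the copies was 1248.4 scaled reads in salt nodal against 51.2 in control nodal roots, a ratio of 24.4 (18.8 to 32.3).

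Lhcb3, another subunit of main antenna trimers, was much less abundant. Os07g0562700 (chromosome 7, 22487433 to 22488617) had 68.1 scaled reads in salt nodal against 5.3 in control nodal, 27.8 in salt L-type against 6.2 in control L-type, and 1.3 in salt S-type against 1.2 in control S-type roots. Its ratio was 12.9 (5.65 to 36.1) in nodal and 4.50 (1.93 to 12.2) in L-type roots. Each S-type library held 1 read of it.

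The minor antennae differed among themselves by more than their counting error. Lhcb6, Os04g0457000 (chromosome 4, 22835912 to 22837571), had 366.7 scaled reads in salt nodal against 3.5 in control nodal, 117.9 in salt L-type against 2.6 in control L-type, and 7.8 in salt S-type against 1.2 in control S-type roots. Its nodal ratio of 104 (40.3 to 383) rested on 420 reads against 4, and its L-type ratio of 44.6 (14.9 to 219) on 123 reads against 3. Lhcb6 was thus among the lowest loci of both these control libraries and among the higher ones of their salt libraries. It overlaps the locus Os04g0457100, which had at most 6.1 scaled reads in any library, and the sources used here do not say whether counting used the strand.

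Lhcb5 and Lhcb4 stood at the other end. Lhcb5, Os11g0242800 (chromosome 11, 7659700 to 7662180), had 85.6 scaled reads in salt nodal against 12.4 in control nodal, 38.4 in salt L-type against 9.7 in control L-type, and 1.3 in salt S-type against 1.2 in control S-type roots. Its ratio of 6.92 in nodal roots (3.94 to 13.1) was the lowest of the 10, and its interval lay wholly below that of Lhcb6; in L-type roots it was 3.95 (1.99 to 8.54). Lhcb4, Os07g0558400 (chromosome 7, 22316342 to 22317935), had 63.7 scaled reads in salt nodal against 5.3 in control nodal, 18.2 in salt L-type against 3.5 in control L-type, and 0 in salt S-type against 2.4 in control S-type roots. The ratio for Lhcb4 was 12.04 (5.27 to 33.9) in nodal and 5.16 (1.72 to 20.9) in L-type roots.

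Among the photosystem I antenna loci, Lhca1 was the most abundant by reads in the salt nodal, salt L-type and control nodal libraries, but not in the others. Os06g0320500 (chromosome 6, 12452707 to 12454049) had 489.7 scaled reads in salt nodal against 9.7 in control nodal, 174.5 in salt L-type against 9.7 in control L-type, and 0 in salt S-type against 2.4 in control S-type roots. The ratio was 50.4 (28.0 to 102) in nodal and 18.0 (9.82 to 36.7) in L-type roots.

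Lhca3 was the antenna locus with no read at all in control nodal roots. Os02g0197600 (chromosome 2, 5468647 to 5470490) had 124.8 scaled reads in salt nodal against 0 in control nodal, 53.7 in salt L-type against 17.6 in control L-type, and 1.3 in salt S-type against 2.4 in control S-type roots. Against the floor of 3 reads that a count of 0 allows in 1 library, the observed salt nodal value was 47.2 times the control nodal one. The counting interval of the salt over control ratio in nodal roots had a lower limit of 37.9. In L-type roots the ratio was 3.04 (1.80 to 5.36), the lowest L-type ratio of the 10 loci. Under control, L-type roots had 20 reads of Lhca3 and nodal roots 0. The observed control L-type value was 6.66 times the floor of 3 reads in the control nodal library. The counting interval of that L-type over nodal ratio had a lower limit of 4.93.

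Lhca4, Os08g0435900 (chromosome 8, 21171277 to 21172654), had 269.7 scaled reads in salt nodal against 1.8 in control nodal, 122.7 in salt L-type against 7.9 in control L-type, and 5.2 in salt S-type against 0 in control S-type roots. The nodal ratio of 153 (42.0 to 1268) set 309 reads against 2, and the L-type ratio was 15.5 (7.89 to 34.6). As with Lhca3, its control L-type value was above its control nodal value, with 9 reads against 2, a ratio of 4.50 whose interval of 0.931 to 42.8 includes 1.

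By role, the nodal ratio of the sums was larger for the Lhca than for the Lhcb loci, while single loci of both kinds overlapped. The 3 Lhca loci together had 884.3 scaled reads in salt nodal against 11.5 in control nodal roots, a ratio of 77.1 (44.9 to 145), and the 7 Lhcb loci had 1832.4 against 77.7, a ratio of 23.6 (19.1 to 29.5). The intervals of these sums did not overlap, but Lhcb6 and the Lhcb1 copy Os01g0600900 had larger nodal ratios than Lhca1. In L-type roots the Lhca loci had 350.9 scaled reads under salt against 35.3 under control, a ratio of 9.95 (7.17 to 14.2), and the Lhcb loci 645.3 against 58.2, a ratio of 11.1 (8.60 to 14.5), so that the intervals overlapped. Without Lhca3 the Lhca ratio was 66.2 (38.5 to 125) in nodal roots and 16.9 (10.7 to 28.0) in L-type roots. The sum of the minor antennae Lhcb4 to Lhcb6 had a nodal ratio of 24.4 (16.2 to 38.3), close to that of the Lhcb1 copies.

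Loci were called higher or lower by size when scaled reads + 1 differed by 2-fold or more, the counting interval excluded 1 and the higher value reached 50 scaled reads. In nodal roots 10 of 10 antenna loci were higher under salt by that rule, where 8.74% of all loci were. In L-type roots 7 of 10 were, where 11.3% of all loci were, and the other 3 (Lhcb3, Lhcb4 and Lhcb5) had ratios whose intervals excluded 1 but fewer than 50 scaled reads. In S-type roots 0 of 10 were higher and 0 lower, where 3.24% of all loci were higher and 8.21% lower. The loci were chosen with these differences known, so nothing is read from those counts. The median log2 difference was 4.88 in nodal roots for the antenna loci (0.00 for all loci), 3.16 in L-type roots (0.05) and -0.17 in S-type roots (-0.07).

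In S-type roots the antenna loci could not be followed at this depth. The 10 loci together had 24 reads under salt and 27 under control, with 2 loci at 0 reads under salt and 1 under control. The ratio of the sums was 0.964 (0.532 to 1.74), which includes no difference and allows one of less than 2-fold either way. A locus at 0 reads could have had up to 3.88 scaled reads in the salt S-type library and up to 3.58 in the control S-type library.

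**Figure D2:**
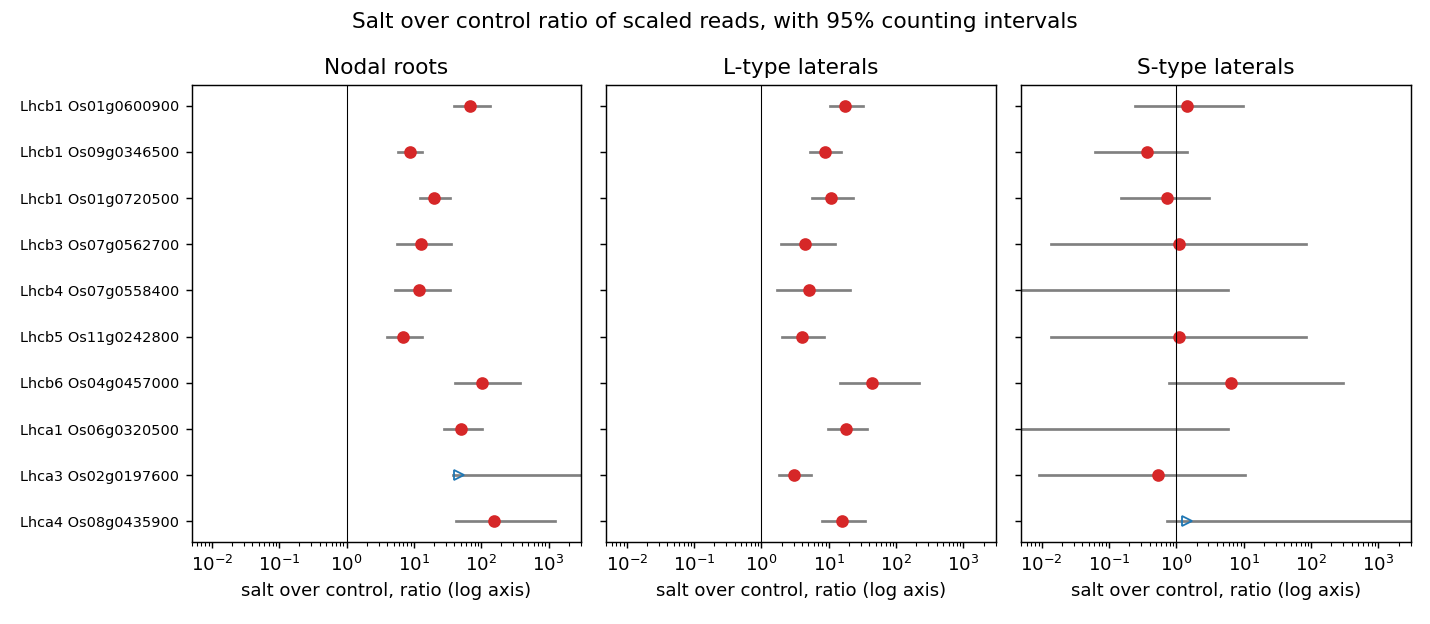
Ratio of scaled reads, salt over control, for each antenna locus in nodal, L-type and S-type roots (log axis), with 95% counting intervals as grey lines. Filled points are ratios, and open triangles are ratios of the observed salt value to the floor of 3 reads where control had 0 reads. The grey line gives the lower limit there. Lines without a point had 0 reads under salt and too few under control for a ratio. In nodal and L-type roots all intervals lie above 1, and in S-type roots all of them include 1.

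Between root types under salt, L-type roots held fewer antenna reads than nodal roots and S-type roots almost none. The ratio of the L-type to the nodal sum was 0.367 (0.342 to 0.394), from 996.3 scaled reads in L-type and 2716.7 in nodal roots. Single loci ran from 0.286 for Lhcb4 (0.163 to 0.479) to 0.588 for the Lhcb1 copy Os09g0346500 (0.474 to 0.727), and all 10 intervals lay below 1. By size, 9 of 10 were lower in L-type against nodal roots, where 7.07% of all loci were, the exception being Os09g0346500. For 7 of the 10 loci the interval held the ratio of the sums. Of the other 3, the Lhcb1 copy Os01g0600900 lay below it, at 0.300 (0.258 to 0.348), and the Lhcb1 copy Os09g0346500 lay above it. Lhca4 lay above it too, at 0.455 (0.367 to 0.561), with a lower limit that barely clears the ratio of the sums.

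The S-type to nodal ratio of the sums under salt was 0.0114 (0.00731 to 0.0170), and all 10 loci were lower in S-type roots by size, where 16.1% of all loci were. L-type roots had 32.1 times the S-type sum under salt (21.5 to 50.3), and 7 of 10 loci were higher in L-type roots by size, where 10.5% of all loci were. The comparisons share libraries, so they are not independent of each other.

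**Figure D3:**
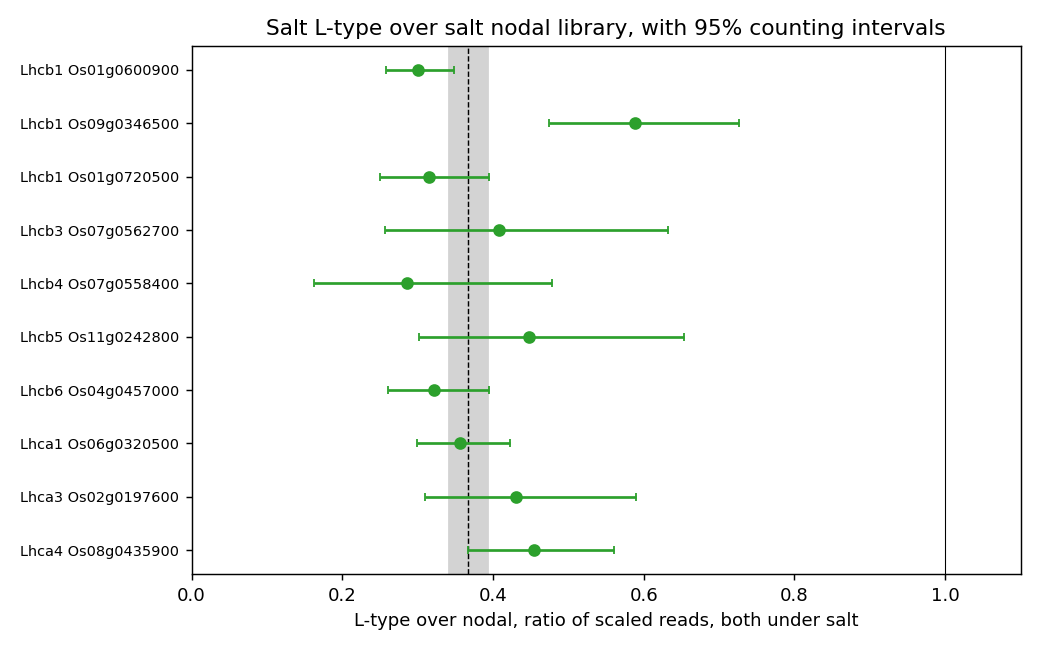
Ratio of scaled reads in the salt L-type over the salt nodal library for each antenna locus, with 95% counting intervals. The dashed line and grey band are the ratio of the summed reads, 0.367, and its interval, 0.342 to 0.394. Most loci lie near the band, the Lhcb1 copy Os09g0346500 lies to its right and Os01g0600900 to its left.

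Under control the root types stood closer together, and no antenna locus reached 50 scaled reads in any of them. L-type and nodal sums were 93.5 and 89.1 scaled reads, a ratio of 1.05 (0.791 to 1.39). The S-type sum was lower than the nodal sum, 32.2 against 89.1, with a ratio of 0.361 (0.227 to 0.557), and the L-type sum was 2.90 times the S-type sum (1.89 to 4.61). The 3 Lhca loci together had 35.3 scaled reads in L-type against 11.5 in nodal roots, a ratio of 3.08 (1.61 to 6.27). Lhca3 carried that difference, since Lhca1 had 11 reads in each library and Lhca1 and Lhca4 together had a ratio of 1.54 (0.728 to 3.36). The 7 Lhcb loci had 58.2 in L-type against 77.7 in nodal roots, a ratio of 0.750 (0.536 to 1.04).

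The make-up of the antenna reads also differed between libraries. The Lhca loci supplied 32.6% of the 3112 antenna reads in the salt nodal library (95% exact binomial interval 30.9% to 34.2%) against 12.9% of the 101 reads in the control nodal library (7.04% to 21.0%). In L-type roots they supplied 35.2% of 1039 reads under salt (32.3% to 38.2%) against 37.7% of 106 reads under control (28.5% to 47.7%). Of the control L-type reads, Lhca3 alone supplied 18.9%.

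Single loci differed in their shares too. Lhcb6 made up 13.5% of antenna reads in salt nodal (12.3% to 14.7%) against 3.96% in control nodal roots (1.09% to 9.83%), and 11.8% in salt L-type (9.94% to 14.0%) against 2.83% in control L-type roots (0.588% to 8.05%). Lhcb5 stood the other way, with 3.15% in salt nodal (2.56% to 3.82%) against 13.9% in control nodal (7.79% to 22.2%), and 3.85% in salt L-type (2.76% to 5.21%) against 10.4% in control L-type roots (5.30% to 17.8%). For both loci the salt and control intervals did not overlap in either root type. The Lhcb1 copy Os09g0346500 made up 8.16% in salt nodal (7.22% to 9.18%) against 28.7% in control nodal roots (20.1% to 38.6%), but 13.1% in salt L-type (11.1% to 15.3%) against 16.0% in control L-type roots (9.63% to 24.4%). The most abundant copy, Os01g0600900, made up 26.7% in salt nodal (25.2% to 28.3%) against 11.9% in control nodal roots (6.29% to 19.8%), while its L-type intervals overlapped, at 21.8% under salt (19.4% to 24.5%) against 13.2% under control (7.41% to 21.2%). Lhca3 had opposite directions in the root types: 4.60% in salt nodal (3.89% to 5.39%) against 0% in control nodal (up to 3.59%), and 5.39% in salt L-type (4.10% to 6.94%) against 18.9% in control L-type roots (11.9% to 27.6%).

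**Figure D4:**
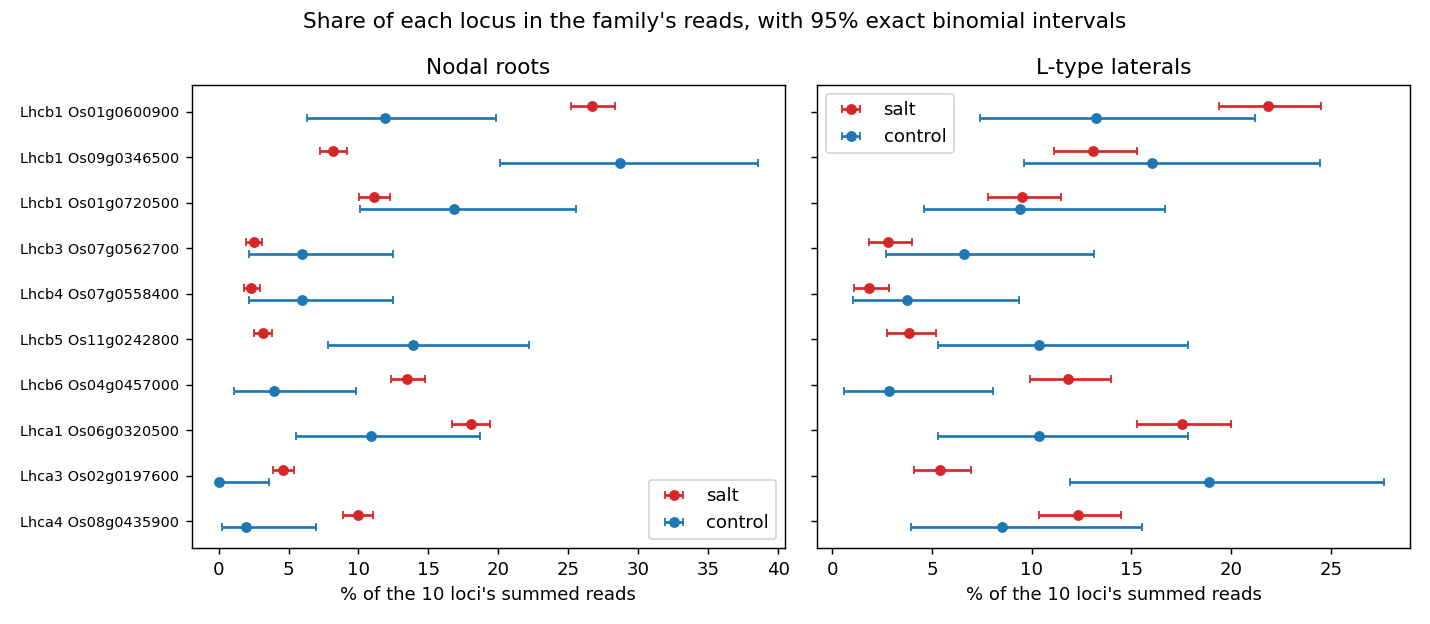
Share of each antenna locus in the summed reads of the 10 loci, in percent, in nodal and L-type roots, with salt in red and control in blue and 95% exact binomial intervals. Lhcb6 lies to the right under salt and Lhcb5 to the left in both root types, whereas the intervals of Os09g0346500 are apart in nodal roots and overlap in L-type roots, and Lhca3 lies on opposite sides in the root types.

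Levels of different loci can be compared per length, in the authors' FPKM (fragments scaled to transcript length and library depth). In the salt nodal library the order by FPKM began with the Lhcb1 copy Os01g0600900 at 185, Lhca1 at 145 and Lhca4 at 141, followed by Lhcb6 at 97.2 and the Lhcb1 copies Os01g0720500 at 88.0 and Os09g0346500 at 53.3. Lhca3 came next at 32.1, and the end of the order was held by Lhcb3 at 21.9, Lhcb5 at 21.6 and Lhcb4 at 15.5. The place of Lhca4 is uncertain, since its FPKM per unit of deposited signal was 0.535 in salt nodal against 0.296 in control nodal roots. In the control nodal library the FPKM values ran from 6.59 for Os09g0346500 down to 0 for Lhca3. Across the 10 loci, the orders of salt L-type and salt nodal roots had a Spearman rho of 0.92, and those of salt nodal and control nodal roots a rho of 0.0061, where the control order rests on few reads. With 1 library per group, no spread can be set beside neighbours in these orders.

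The FPKM of Lhca4 calls for care. In the salt L-type library Lhca4 was the highest antenna locus by FPKM, at 103, ahead of Os01g0600900 at 53.1, although by reads it had 128 against 227. Per unit of the deposited signal, the FPKM of Lhca4 was 1.64 times as high in the salt L-type as in the salt nodal library, while for the 9 other loci that quotient lay between 0.979 and 0.990. Across its 5 libraries with a read, the highest quotient of FPKM to signal was 3.39 times the lowest. That spread includes libraries with 2, 4 and 9 reads of Lhca4. Of the 17000 loci with at least 2 libraries of at least 20 reads, 9.79% had a spread of at least 1.5 times over such libraries. For Lhca4 only the salt nodal and salt L-type libraries reached 20 reads, so 1.64 is its spread by that rule. Ratios here are therefore taken from reads, and the cause of the difference was not tested.

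The authors' deposited table marks few of these differences as significant. Over its 15 pairs of libraries the authors' deposited table holds 150 comparisons of antenna loci, of which 115 were tested and 6 were significant by the authors' q-value, where 0.401% of all tested values were. In all 6, a library was listed at 0 FPKM. For salt against control in nodal roots the authors' deposited table marks Lhca3 alone (q = 0.0144), where 0.0493% of tested loci were marked. Os01g0600900, with 185 FPKM in salt nodal against 2.88 in control nodal roots, had a q of 0.999 in the authors' deposited table.

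Other photosynthesis loci were counted by lists of rice IDs written from general knowledge, with earlier results of these data known. Subunits of the photosystems other than antennae had 10 of 13 loci higher under salt in nodal roots by size, 4 of 13 in L-type roots and 0 of 13 in S-type roots, and 11 of the 13 passed the filter on low reads. The all-loci shares of 8.74% (nodal), 11.3% (L-type) and 3.24% (S-type) stand beside these and the following list counts, over loci that passed that filter. The median log2 difference over the 13 was 4.62 in nodal, 1.95 in L-type roots and -0.56 in S-type roots. Their summed values were 2267.1 scaled reads in salt nodal against 197.7 in control nodal roots and 1156.4 in salt L-type against 289.3 in control L-type roots. In S-type roots they had 327.1 under salt against 313.6 under control, of which the most abundant locus of the list supplied 70.0% under salt and 59.3% under control.

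Further antenna loci not among the 10 had 2 of 7 higher in nodal and 1 of 7 in L-type roots, with 3 of 7 past the filter, median log2 differences of 0.94 and 0.00 and sums of 225.2 scaled reads in salt nodal against 13.2 in control nodal and 107.4 in salt L-type against 52.9 in control L-type roots. Calvin cycle loci, which fix carbon dioxide, had 2 of 8 higher in each of these root types, with 4 of 8 past the filter, median log2 differences of 3.14 and 1.52, and sums of 434.7 in salt nodal against 16.8 in control nodal and 226.3 in salt L-type against 46.7 in control L-type roots. Both electron carrier loci stayed under 50 scaled reads in every library. The list for chlorophyll synthesis and greening regulators had 2 of 10 higher in nodal and 1 of 10 in L-type roots, and 1 of 10 lower in S-type roots, where 8.21% of all loci were lower, with 8 of 10 past the filter. The last 2 of these shares are near the all-loci shares. Its sum was 750.8 scaled reads under salt against 571.0 under control in nodal roots, 703.8 under salt against 670.3 under control in L-type roots and 1436.2 under salt against 1373.4 under control in S-type roots. A single locus supplied 89.3% of the S-type sum under salt and 88.1% under control, and the other loci summed to 154 scaled reads in salt S-type against 431 in salt nodal roots. The median log2 difference over the 10 loci was -1.32 for S-type over nodal roots under salt. By size, 1 was higher and 3 were lower, where 17.5% of all loci were higher and 16.1% lower. In salt S-type roots 4 of the 10 loci had 0 reads. Differences between the lists were not tested. Photosynthesis loci also mark green shoot tissue: the 30 loci of the lists other than chlorophyll synthesis had 2962.9 scaled reads in salt nodal against 230.3 in control nodal, 1533.2 in salt L-type against 404.9 in control L-type, and 351.6 in salt S-type against 358.9 in control S-type roots. Of these 30, the numbers at 0 reads were 2 in salt nodal, 10 in control nodal, 3 in salt L-type, 5 in control L-type, 14 in salt S-type and 9 in control S-type roots. The part of green tissue in the antenna values was not tested.

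**Figure D5:**
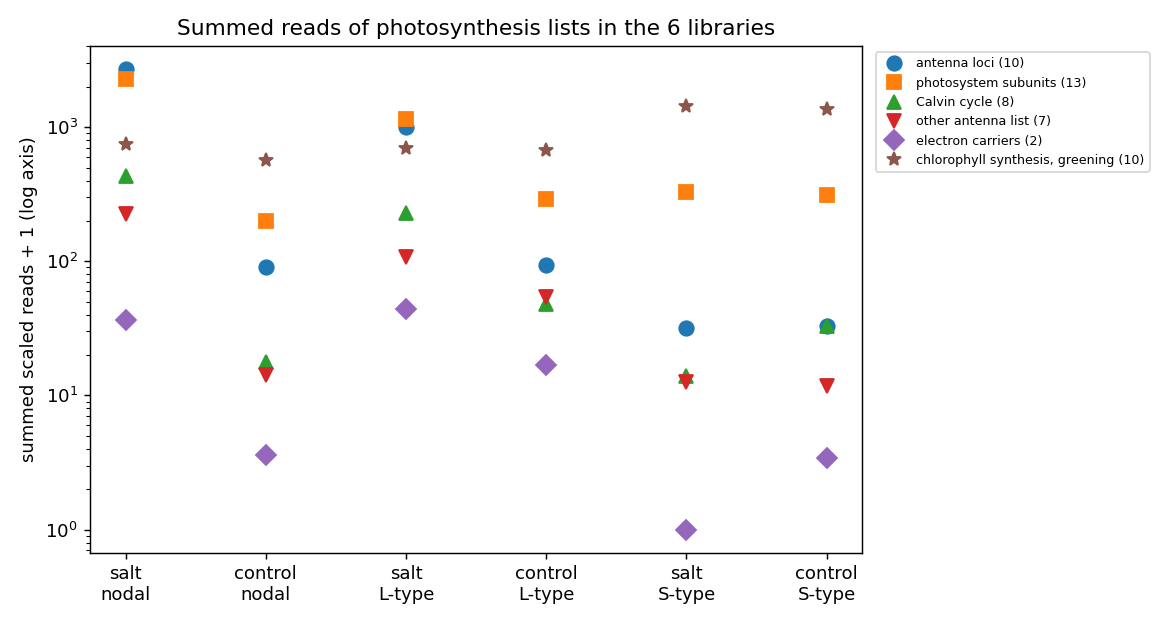
Summed scaled reads + 1 (log axis) of the 10 antenna loci and of 5 lists of other photosynthesis loci in the 6 root libraries, with the number of loci in brackets. The antenna and photosystem sums are highest in the salt nodal and salt L-type libraries, and the chlorophyll synthesis sum is highest in the S-type libraries, where a single locus supplies 89.3% of it under salt and 88.1% under control.

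The loci around the antenna genes were higher under salt at shares near those of all loci. The antenna loci lie on 8 chromosomes, and the closest pair, Lhcb4 and Lhcb3 on chromosome 7, is 169498 bp apart. Of the 40 nearest loci, 2 on each side of each antenna locus, 26 passed the filter on low reads. By size, 2 of these were higher and 1 lower under salt in nodal roots, and 3 were higher and 1 lower in L-type roots, where 8.74% and 11.3% of all loci were higher.

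Outside the lists, likeness to the antenna loci was measured as Pearson's r over the 6 libraries between a locus and the mean of the 10, both as log2(scaled reads + 1). Among 14863 other loci with at least 50 scaled reads in some library, the most alike was Os05g0355400 (chromosome 5, 16859590 to 16860964), with an r of 0.995. It had 1917.9 scaled reads in salt nodal against 24.7 in control nodal, 953.1 in salt L-type against 40.6 in control L-type, and 12.9 in salt S-type against 10.7 in control S-type roots. Next was Os01g0235300 (chromosome 1, 7470709 to 7472729), with an r of 0.992 but a far smaller range, from 357.0 scaled reads in salt nodal to 137.0 in salt S-type roots. The antenna loci themselves are part of the mean of the 10 and were chosen on these levels, so high r values were built in. They ran from 0.889 (Lhca3) to 0.997 (Os01g0600900). With the lowest of these as a mark, 221 other loci, 1.49% of those compared, reached at least that value. Of the 19 loci from the photosynthesis and chlorophyll lists that could be compared, 11 were among them. With 6 points such an r is a description, and the points share libraries and scaling.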

How the data were processed

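Messenger RNA was sequenced from 6 groups of IR29 rice roots, 1 strand-specific library each (insert size 200 bp, per the labels' protocols). The build was IRGSP-1.0 and the tools were Cuffdiff 2.2.1, Cufflinks 2.2.1, TopHat2 2.0.11, Bowtie and Trimmomatic 0.32, per the submitters' processing notes, which give no role or order here. The authors deposited a signal per locus, which is reads divided by 1 size factor per library. Dividing by its step gave whole reads within 0.01 for 99.9% to 99.99% of values above 0. The authors also deposited FPKM, p-values and q-values for pairs of libraries, per the file headers in Cuffdiff's layout. Loci without a gene ID (828, at most 0.576% of a library's reads) were left out.

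Reads were scaled with TMM (edgeR 4.0.16, R 4.3.3) over 18936 loci, those reaching 10 reads in 2 libraries or more. Ratios and intervals were computed with scipy 1.17.1 and tested on simulated counts of well-read loci with a 4-fold change. The simulation held counting error alone and did not cover counts as low as those of the antenna loci in control and S-type libraries. No test was made of single loci, since each group is 1 library and the members, lists and rules were chosen with earlier results of these data known. As a background, edgeR's quasi-likelihood test in an additive fit of root type and treatment, added after the data were seen, called 0 of 18936 loci between salt and control (2081 at an unadjusted p under 0.05). All 10 members are named, with 2 of the 10 most alike loci, since no annotation was at hand for the others, and, chosen after its values were seen, the locus overlapping Lhcb6. Alternatives were 3 other scalings (DESeq2 1.42.0 for median-of-ratios factors), a pseudocount of 10, minimums of 10 and 200 scaled reads, a 4-fold threshold and FPKM with at least 1 FPKM in the higher library and a pseudocount of 0.1.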

Additional observations from a re-analysis of the deposited data

How the results depend on the processing

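Under 3 other scalings, a pseudocount of 10 and FPKM, the sums of the antenna loci kept their direction in nodal and L-type roots and between root types under salt. The sum in S-type roots, -0.05 on the log2 scale for salt over control, lay between -0.10 and 0.03 and so changed sign. Scaling by library totals gave the largest shift of a sum among the scalings, -6.88 for S-type over nodal roots under salt against -6.41 with TMM. A minimum of 200 scaled reads cut the counts to 6 higher under salt in nodal roots, 1 higher in L-type roots, under salt 6 lower in S-type against nodal roots, 5 lower in L-type against nodal roots and 1 higher in L-type against S-type roots, since fewer loci reach it. With 4-fold, under salt 0 loci were lower in L-type against nodal roots. FPKM counted 2 loci as higher under salt in S-type roots, with at most 6 reads each. The shares of all loci under these changed rules are not given here, so nothing is read from these counts. On FPKM the log2 difference of the sums was 3.74 for salt over control in L-type roots, against 3.40 from reads, and -1.29 for L-type over nodal roots under salt, against -1.45. Without Lhca4, an alternative chosen after seeing the data, these FPKM values were 3.32 and -1.55. For single loci, 12 of 30 salt differences moved beyond their counting interval with a pseudocount of 10 and 1 of 30 with FPKM, none of these in sign. With 1 library per group, no pairing of replicates between groups was possible. Root type was a term of edgeR's additive fit, which called 0 of 18936 loci for salt (2081 at an unadjusted p under 0.05). Low counts limit the S-type comparison, where the 10 loci had 24 and 27 reads under salt and control. These libraries held 3876701 and 4063009 reads, and the salt L-type library 3817077.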

Other observations

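In the authors' deposited table, 1087 values over all loci with a gene ID and all 15 comparisons were marked significant, and in 99.2% of these 1 of the libraries was listed at 0 FPKM. Of all 271077 tested values, 3.40% had a library listed at 0. The cause was not tested.

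By size, 729 loci, 3.85% of those past the filter on low reads, were higher under salt in both nodal and L-type roots. Of these, 89.0% were not higher in S-type roots, against 96.8% of all loci. The antenna loci, chosen on these values, supplied 7 of the 729.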
